A study of Mus musculus with 8 samples.

Results

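Myelin transcript enriched microglia (MyTE) is the study's name for a group of mouse brain nuclei with RNA of myelin genes beside RNA of microglial genes. The study assigned this subpopulation label by clustering, and 270 nuclei carried it, of 2291 nuclei in the table of microglia and macrophages and of 61949 nuclei in all. Nuclei were isolated from hemispheres, with olfactory bulb and cerebellum removed, of mice of strain C57BL6/J aged 6 months, and were sequenced in 8 single-nucleus RNA libraries, 2 for each of 4 genotypes. WT mice carried neither allele. Cnp-/- mice lacked Cnp, which encodes a myelin protein of oligodendrocytes, and 5xFAD mice carried transgenes with familial Alzheimer's disease mutations under the neuronal Thy1 promoter. Cnp-/- 5xFAD mice carried both. The MyTE nuclei numbered 11 and 3 in WT replicates 1 and 2, 59 and 20 in Cnp-/-, 47 and 30 in 5xFAD, and 47 and 53 in Cnp-/- 5xFAD.

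Myelin is made by oligodendrocytes, which wrap axons in a membrane built from myelin basic protein, other membrane proteins and specialised lipids. Microglia are the resident phagocytes of the brain and take up myelin debris when sheaths break down. Homeostatic microglia are marked by genes such as P2ry12 and Tmem119, and disease-associated microglia (DAM) lower these and raise genes of lipid handling, lysosomes and adhesion such as Lpl, Atp6v0d2 and Itgax. The study separated DAM into a state met with amyloid (amyloid-DAM) and a state met with damaged myelin (myelin-DAM). The 4 other populations set beside MyTE here were the 982 homeostatic, 586 amyloid-DAM and 248 myelin-DAM nuclei, together called other microglia, and 5612 mature oligodendrocytes (MOL).

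The knocked-out gene was read first. In MyTE nuclei Cnp stood at 296 and 215 CPM (UMIs of the gene scaled by all UMIs of the profile) in WT, 28.1 and 0 in Cnp-/-, 86.4 and 241 in 5xFAD, and 21.2 and 13.97 in Cnp-/- 5xFAD. These values rested on 0 to 24 UMIs in a library, and no library with a Cnp-/- genotype reached the level of a library with intact Cnp. The change did not pass the threshold across all genes, at a log2 fold change of -3.05 ± 0.729 (SE, adjusted p = 0.131, quasi-likelihood fit in edgeR, 2 libraries against 2) for Cnp-/- 5xFAD against 5xFAD. MOL of the same libraries showed 219 to 321 CPM with intact Cnp and 23.1 to 32.8 CPM without it. Of all nuclei, 909 shared a cell barcode with a nucleus of another library, 6 MyTE nuclei among them, and no barcode was shared between MyTE nuclei.

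The levels of 4 marker genes of MyTE were then described. They cannot check the label, which came from clustering on all genes of the same nuclei. Mbp, which encodes myelin basic protein, stood at 2743 to 4121 CPM in MyTE nuclei over the 8 libraries, against 5519 CPM in pooled MOL and 42.2 CPM in pooled homeostatic microglia. Magi2, a scaffold gene, ranged from 4192 to 7735 CPM, and Nkain2, which encodes a protein that interacts with the sodium pump, from 5206 to 7344 CPM. These 3 genes were high in MyTE nuclei of every library. Csmd2, a transmembrane protein gene, did not mark MyTE in every genotype. It stood at 29.6 and 0 CPM in WT (1 and 0 UMIs) and at 37.0 and 0 CPM in 5xFAD (6 and 0 UMIs). With Cnp lost, it reached 203 and 223 CPM without 5xFAD, and 180 and 196 CPM with it. Microglial identity was read from Cx3cr1, the fractalkine receptor of microglia. It stood at 339.6 to 539 CPM in MyTE, against 1155 CPM in pooled homeostatic microglia and 10.2 CPM in pooled MOL.

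Because a UMI can also come from free RNA, the shares of nuclei with a UMI were set beside those of cells that should lack the gene. Mbp was seen in 99.3% of MyTE nuclei and in 4.79% of homeostatic nuclei, and after thinning each nucleus to 700 UMIs the shares were 82.8% and 3.34%. Cx3cr1 was seen in 64.4% of MyTE nuclei and in 1.59% of MOL, and after thinning in 22.1% and 0.487%. Both shares in MyTE lay above the background of the other cell type. The nuclei were grouped by clustering on these same counts, so this is a description and no test of free RNA. Median depth was 2761.5 UMIs in MyTE, 1159.5 UMIs in homeostatic microglia and 1515 UMIs in MOL, and thinning left out 3 MyTE nuclei, 85 homeostatic nuclei and 275 MOL.

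Markers of cells outside the microglial and oligodendrocyte lineages were low in MyTE, with macrophage and astrocyte genes as exceptions in some libraries. The 11 neuronal genes, such as Syt1 and Snap25 of the synapse, summed to between 0 and 53.0 CPM in a library, and Syt1, Snap25, Grin1 and Slc17a7 were at 0 in every library. The 5 genes of oligodendrocyte precursors summed to between 0 and 175 CPM, and the 6 genes of vessel cells to between 0 and 350 CPM, with Cldn5 of the endothelium at 0. The 6 genes of newly formed oligodendrocytes summed to between 646 and 1180.4 CPM, beside 823 to 1197 CPM in homeostatic microglia and 1086 to 1298 CPM in MOL. The 7 astrocyte genes summed to between 278 and 985 CPM, most of it Slc1a3, which other microglia held at a like level (313 CPM in MyTE and 318 CPM in other microglia, pooled). The 6 macrophage genes summed to between 0 and 279 CPM in 7 libraries and to 963 CPM in 5xFAD replicate 1. This went with 15 MyTE nuclei, 6 of them in 5xFAD replicate 1, that carried macrophages as their broader cell type label. They held 244 macrophage-list UMIs, at 4379.7 CPM, and the other MyTE nuclei 23, at 28.3 CPM.

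MyTE nuclei held more RNA than either population they resembled. By library the median was 2097 to 3565 UMIs in MyTE, 1064 to 1594 UMIs in other microglia and 1108 to 2020 UMIs in MOL. The sum of the medians of other microglia and MOL ran from 2274 to 3614 UMIs by library. In Cnp-/- 5xFAD replicate 1, for example, the MyTE median was 3565 UMIs and the sum was 3028 UMIs, and in Cnp-/- replicate 2 the values were 2097 and 2274 UMIs. In the clustering of all nuclei, 252 MyTE nuclei lay in a cluster of 383 nuclei that held no homeostatic, amyloid-DAM or myelin-DAM nucleus. The remaining 131 nuclei of that cluster were not in the microglia table.

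RNA of both classes was then counted nucleus by nucleus, on 292 genes enriched in other microglia and 117 genes enriched in MOL, each with at least 20 CPM in its own class and at least 10 times the level in any other class (newly formed oligodendrocytes were not counted against MOL, and macrophages were not a class of this comparison). A MyTE nucleus held a median of 81 UMIs on the microglia-enriched genes, where other microglia held 86 and MOL 0. On the oligodendrocyte-enriched genes it held a median of 95 UMIs, where MOL held 96 and other microglia 1. In absolute UMIs the median MyTE nucleus therefore stood near each class on that class's own genes. At least 30 UMIs on both sets were found in 260 of 270 MyTE nuclei (96.3%, Wilson 95% interval 93.3 to 98.0%, counting error only). The same was found in 1 of 982 homeostatic, 1 of 586 amyloid-DAM, 0 of 248 myelin-DAM and 3 of 5612 MOL nuclei. Outside these classes, 6 of 205 macrophages, 31 of 465 newly formed oligodendrocytes and 2285 of 45141 neurons did so, the neurons at a median depth of 9105 UMIs. The label came from clustering of these same counts, and each set was chosen to be low outside its class. The contrast is therefore a description and no test of the label. Within MyTE the balance varied: oligodendrocyte-enriched UMIs were 24.2 to 100% of the sum over both sets, with a median of 53.2%. The medians by library lay between 47.1 and 57.2%, so the spread lay between nuclei of a library more than between libraries.

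**Figure D1:**
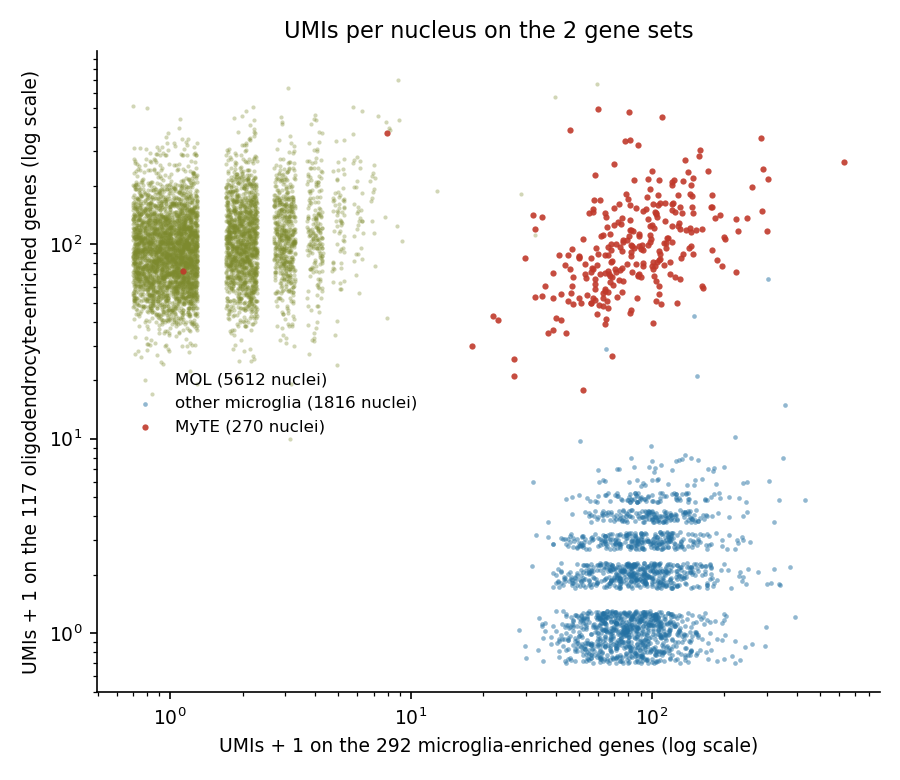
Each point is a nucleus, with its UMIs + 1 on the 292 microglia-enriched genes on the x axis and on the 117 oligodendrocyte-enriched genes on the y axis, both on log scales and with a small random shift. MyTE nuclei (red) lie at the microglial level on x and at the oligodendrocyte level on y, apart from MOL at the upper left and other microglia at the lower right, and a few MyTE nuclei lie within MOL.

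As shares of all UMIs, both programmes were diluted in MyTE. Oligodendrocyte-enriched genes took 3.58 ± 0.276% of MyTE UMIs (SD, n = 6 libraries with at least 20 MyTE nuclei), against 6.49% in pooled MOL and 0.0914% in pooled other microglia. Microglia-enriched genes took 2.94 ± 0.190%, against 7.08% in pooled other microglia, 4.77% in pooled macrophages and 0.0406% in pooled MOL. On the scale from other microglia to MOL, pooled MyTE lay 54.3% of the way to MOL, and they held 41.6% of the microglial level. These percentages summed to 96.0%, and to between 88.8 and 103.6% in single libraries. Genotype made no difference that passed a test here. The oligodendrocyte-enriched share was 3.58 ± 0.354% in the 4 libraries without Cnp and 3.78 ± 0.363% in the 4 with it (SD), a difference of -0.197 percentage points (two-sided exact permutation test, p = 0.571, adjusted over 3 such tests 0.571).

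The median dilution was similar across the functional groups of oligodendrocyte genes, and differences between the groups were not tested. The ratio of MyTE to MOL CPM had a median of 0.562 over 10 genes of myelin proteins, 0.571 over 8 transcription factors of the lineage, 0.567 over 7 enzymes of myelin lipids and metabolism, and 0.538 over 10 other oligodendrocyte genes, beside 0.555 over all 117 enriched genes. Among myelin protein genes the ratio was 0.581 for Mbp, 0.528 for Mobp, a basic protein gene of oligodendrocytes, and 0.575 for Mog, a glycoprotein of the outer sheath. Among transcription factors it was 0.709 for Sox10 and 0.551 for Myrf, both drivers of oligodendrocyte differentiation. Fa2h and Ugt8a, enzymes of galactolipid synthesis, stood at 0.6249 and 0.553. Single members of these groups ran from 0.388 (Ptgds) to 0.715 (Plcl1, which other microglia also held, at 1820 CPM).

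Of the enriched genes with at least 100 CPM in MOL, Pigz (0.801), Slc13a1 (0.785), Pls1 (0.696), Dusp10 (0.670) and Adamts4 (0.659) had the highest ratios. Anln (0.376), Gm816 (0.402), Cyp2j12 (0.416), Enpp6 (0.447) and Gm19500 (0.448) had the lowest. For Pigz, which acts in anchor synthesis, the ratio ran from 0.578 to 1.13 over the 6 libraries, and for Anln, an actin-binding protein gene, from 0.201 to 0.627. These ends of the ranking therefore overlapped in single libraries. On the microglial side the ratio of MyTE to other microglia had a median of 0.418 over the 292 enriched genes, 0.412 over 16 homeostatic genes (range 0.343 to 0.472) and 0.544 over 21 analysed DAM genes (range 0.291 to 1.04). Some of these DAM genes were also held by MOL, such as Csf1 (1.04, 116 CPM in MOL), Apoe (1.03, 209 CPM) and Cd9 (0.815, 170 CPM). Of those low in MOL, Trem2 (0.381) and Axl (0.409) stood near the enriched genes, and Colec12 (0.990) and Lpl (0.632) above them.

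Gene by gene, MyTE levels lay close to a weighted sum of the other populations. The sum took 41.6% of the level in other microglia and 54.3% of the level in MOL, weights set on the enriched genes, which are among the genes compared. Over 2498 genes with at least 100 CPM in MyTE or in the sum, 2379 (95.2%) lay within 1.5-fold of the sum and 2476 (99.1%) within 2-fold. Across genes, log2 MyTE levels correlated with the sum at r = 0.963, with MOL alone at r = 0.483 and with other microglia alone at r = 0.208, a description over 2498 genes of the same libraries. Of 2412 genes with at least 100 CPM in MyTE, 0 stood at 2 times or more the level of every other microglial subpopulation, macrophages and MOL in at least 5 of the 6 libraries. Thus no gene met the rule for a gene of MyTE's own.

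Few genes lay outside 2-fold. The 12 above the sum were led by Nrxn3, a synaptic adhesion gene, at 139 CPM against 25.6 CPM, and by Dab2, an endocytic adaptor on the macrophage list, at 105 CPM against 25.7 CPM. One nucleus of Cnp-/- replicate 1 held 92 of the 121 Nrxn3 UMIs. Others above were Lsamp, Impact, Maco1, Rasa2, Rora, Zc3h13, Sorl1 and Hnrnpd. The 10 below were Schip1, Prkce, Tenm2, Epb41, Dock3, Plxna4, Xkr4, Robo1, Cacna1d and Kcnma1, with Schip1 the lowest at 38.0 CPM against 153 CPM.

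**Figure D2:**
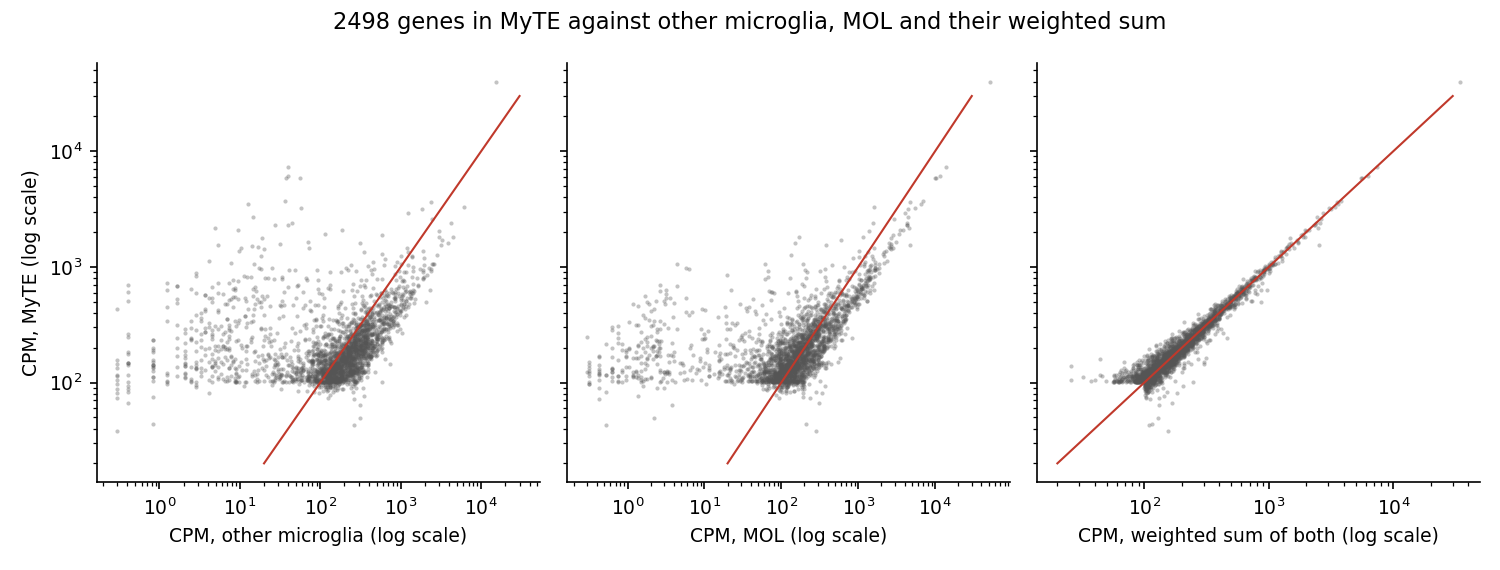
Pooled CPM of 2498 genes in MyTE (y axis) against other microglia, MOL and the weighted sum of both (x axes), all on log scales, with values near 0 drawn at the left edge and the red line marking equal levels. The points lie along the line for the weighted sum, where 95.2% are within 1.5-fold, and scatter widely for either population alone.

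The number of MyTE nuclei was set against the numbers of both classes. There were 1.69 and 0.676 MyTE nuclei per 100 MOL in WT replicates 1 and 2, 6.34 and 3.07 in Cnp-/-, 4.62 and 5.45 in 5xFAD, and 6.92 and 7.69 in Cnp-/- 5xFAD. Divided by the product of the numbers of other microglia and MOL over all nuclei of the library, MyTE gave 0.885 and 0.957 in WT, 2.50 and 2.58 in Cnp-/-, 0.885 and 1.39 in 5xFAD, and 1.45 and 2.18 in Cnp-/- 5xFAD. On this scale all 4 libraries without Cnp lay above the 4 with it, which was not tested. The gap was narrow, at 1.45 in Cnp-/- 5xFAD replicate 1 and 1.39 in 5xFAD replicate 2. Per 100 MOL the groups overlapped, with Cnp-/- replicate 2 below both 5xFAD libraries. The part of joint capture of a microglial and an oligodendrocyte nucleus, of uptake of myelin RNA and of free RNA in these nuclei was not tested. The sources do not say how doublets were treated in these data, and the doublet caller run here gave no usable calls. Its score had a median of 0.0851 in MyTE, 0.00675 in homeostatic microglia, 0.0102 in amyloid-DAM, 0.014 in myelin-DAM and 0.0148 in MOL, and the MyTE median was above those of other microglia and MOL in all 8 libraries. Newly formed oligodendrocytes, at 0.123, and macrophages, at 0.0576, also scored above homeostatic microglia.

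The microglial genes of MyTE were then compared with the 3 microglial states. Each nucleus was given the state whose profile over the 292 microglia-enriched genes made its UMIs most likely, with profiles that left out the nucleus's own library. The other library of the same genotype stayed in the profiles, and the states were unevenly spread over genotypes. Amyloid-DAM held 184, 127, 143 and 112 nuclei in the libraries with 5xFAD and 1, 0, 14 and 5 in the others. Myelin-DAM held 83, 36, 67 and 49 nuclei in the libraries without Cnp and 1, 0, 5 and 7 in the others. The same rule returned the study's label for 93.2% of homeostatic, 77.5% of amyloid-DAM and 71.4% of myelin-DAM nuclei. Of the 270 MyTE nuclei, 136 were nearest to homeostatic microglia, 74 to amyloid-DAM and 60 to myelin-DAM, and 44 had a posterior under 0.8. MyTE was thus mixed in its microglial state.

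The counts were then read by genotype. All 14 WT nuclei were nearest to homeostatic microglia. In Cnp-/- 49 nuclei were nearest to homeostatic microglia, 5 to amyloid-DAM and 25 to myelin-DAM. In 5xFAD the numbers were 31, 32 and 14, and in Cnp-/- 5xFAD 42, 37 and 21. Homeostatic microglia were the most frequent nearest state in both libraries of WT and of Cnp-/-, in Cnp-/- replicate 2 by 10 nuclei to 9 for myelin-DAM. With 5xFAD the leading state differed between libraries of a genotype: homeostatic nuclei outnumbered amyloid-DAM by 19 to 18 in 5xFAD replicate 1, and amyloid-DAM led by 20 to 17 in Cnp-/- 5xFAD replicate 1. With enriched genes taken at 5-fold instead of 10-fold, 26 of the 270 nuclei changed their state.

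The share nearest to amyloid-DAM was 0 and 0% in WT, 6.78 and 5.00% in Cnp-/-, 38.3 and 46.7% in 5xFAD, and 42.6 and 32.1% in Cnp-/- 5xFAD. The libraries with 5xFAD did not overlap those without it. Their means were 39.9 ± 6.23% and 2.94 ± 3.48% (SD, n = 4 each), a difference of 37.0 percentage points (p = 0.0286 by two-sided exact permutation, and 4 against 4 allows no smaller p). Adjusted over 3 tests this p was 0.0857. With the WT libraries, of 11 and 3 nuclei, left out, the exact permutation p was 0.0667, the smallest that the remaining libraries allow. Other microglia gave 0 to 15.2% without 5xFAD and 36.2 to 42.96% with it under the same rule. The amyloid-DAM profile came mostly from libraries with 5xFAD, so the test cannot separate this state from other effects of 5xFAD on microglial genes.

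The share nearest to myelin-DAM was 0 and 0% in WT, 27.1 and 45% in Cnp-/-, 21.3 and 13.3% in 5xFAD, and 21.3 and 20.8% in Cnp-/- 5xFAD. Here 5xFAD replicate 1 reached the level of the Cnp-/- 5xFAD libraries, and the groups overlapped. The means were 28.5 ± 11.3% without Cnp and 8.65 ± 10.5% with it (SD, n = 4 each), a difference of 19.9 percentage points (two-sided exact permutation test, p = 0.0857, adjusted over 3 tests 0.129). Without 5xFAD replicate 1 the difference was 24.1 percentage points (exact p = 0.0286). It was 20.1 percentage points (exact p = 0.0286) without the 15 nuclei labelled macrophages, a choice made after seeing the data. Without the WT libraries it fell to 11.2 percentage points (exact p = 0.467). Other microglia gave 0.637 and 0% in WT, 36.0 and 34.3% in Cnp-/-, 4.90 and 6.34% in 5xFAD, and 24.3 and 15.4% in Cnp-/- 5xFAD. MyTE lay above them in both 5xFAD libraries and on both sides of them in Cnp-/- and Cnp-/- 5xFAD, and the difference between the populations was not tested. The myelin-DAM profile came mostly from libraries without Cnp, so this test has the same limit as that of the amyloid-DAM share.

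**Figure D3:**
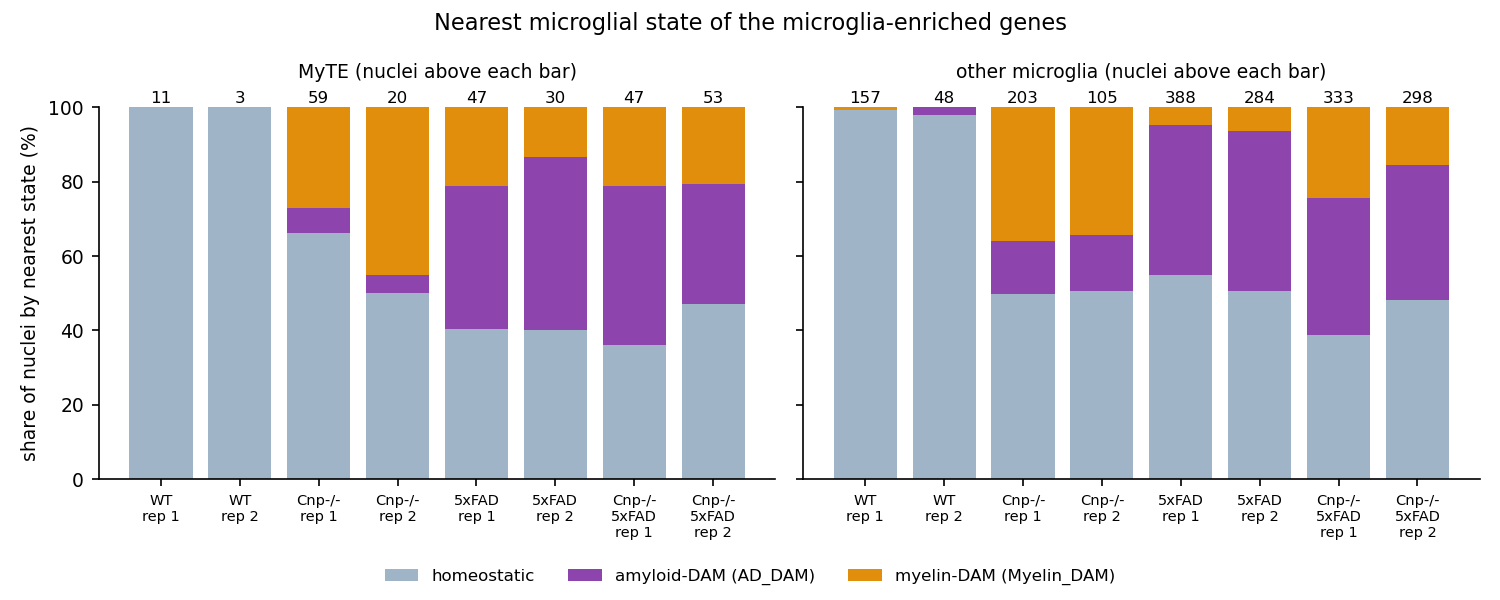
Bars show the percentage of nuclei nearest to the homeostatic, amyloid-DAM and myelin-DAM profiles in each library, for MyTE on the left and other microglia on the right, with the number of nuclei above each bar. Amyloid-DAM takes 32.1 to 46.7% of MyTE in the 4 libraries with 5xFAD and at most 6.78% in the 4 without it.

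On the lists of homeostatic and DAM genes the mean of MyTE lay between those of the states. To take out the dilution, UMIs were counted per 100000 UMIs on the microglia-enriched genes of the same profile. The 13 homeostatic genes among the enriched ones summed to 16235 ± 479 in MyTE (SD, n = 6), 19143 ± 1203 in homeostatic microglia (n = 8), 14881 ± 828 in amyloid-DAM (n = 4) and 13008 ± 916 in myelin-DAM (n = 4), over libraries with at least 20 nuclei. In the same 6 libraries as MyTE, other microglia together held 15075 to 17620.0 on this list, a range that covered all 6 MyTE values. The 8 DAM genes summed to 1497 ± 394 in MyTE, 531 ± 115 in homeostatic microglia, 1973 ± 273 in amyloid-DAM and 2298 ± 357 in myelin-DAM. By library the DAM sum in MyTE was 564 and 405 in WT, 983 and 1475 in Cnp-/-, 1356 and 1583 in 5xFAD, and 1398 and 2185 in Cnp-/- 5xFAD, with both WT values below all others. Other microglia held 985 to 1516 in the 6 libraries other than WT, within the range of MyTE.

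Single genes of these lists varied around that order. P2ry12, the purinergic receptor of resting microglia, stood at 1136 in MyTE, 1435 in homeostatic microglia, 882 in amyloid-DAM and 601 in myelin-DAM, pooled over libraries. Tmem119, a surface marker of resident microglia, stood at 124 in MyTE, 172 in homeostatic microglia, 43.2 in amyloid-DAM and 41.3 in myelin-DAM. Igf1, a growth factor of DAM, stood at 384, 34.7, 602 and 638, in the same order of populations. Lpl, a lipase, stood at 275 in MyTE, 26.02 in homeostatic microglia, 382 in amyloid-DAM and 317 in myelin-DAM. Atp6v0d2, a subunit of the lysosomal proton pump, stood at 93.0 in MyTE, 0 in homeostatic microglia, 58.8 in amyloid-DAM and 395 in myelin-DAM. The Lpl, Igf1, Itgax, Lgals3 and Atp6v0d2 UMIs of both WT libraries were 0 in MyTE, at a depth of 33782 and 9289 UMIs.

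**Figure D4:**
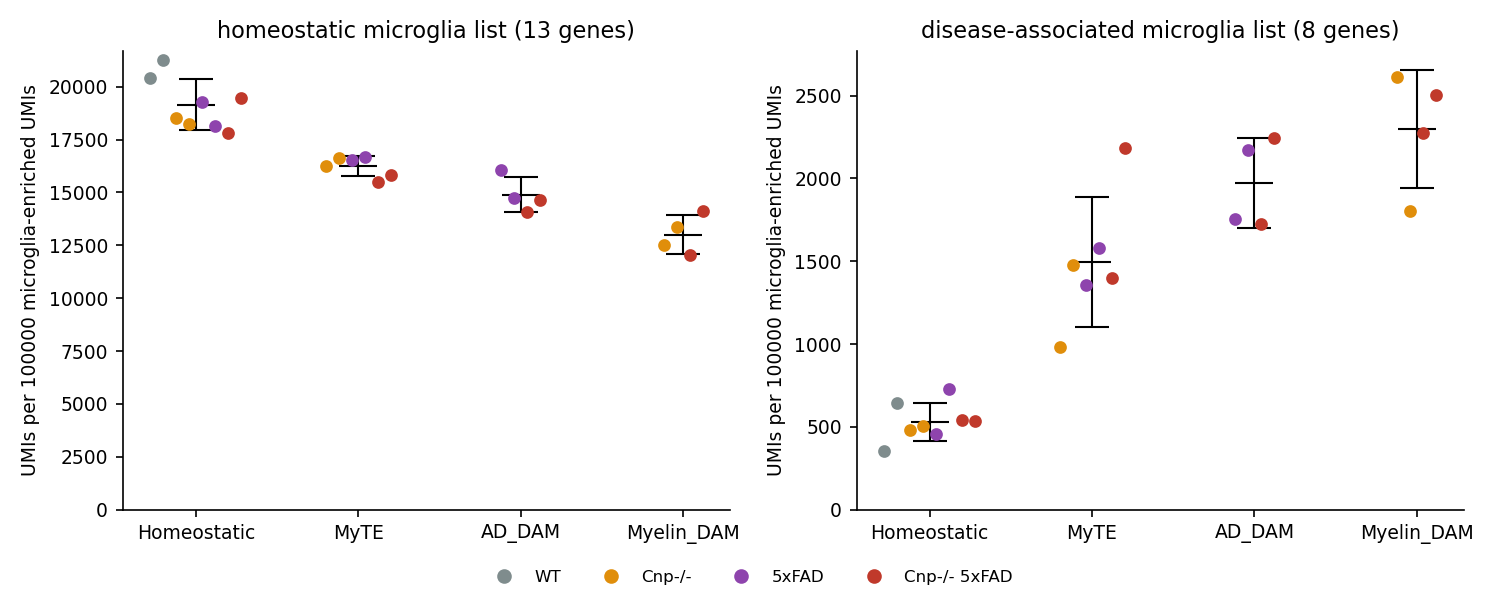
Points are libraries with at least 20 nuclei of the population, coloured by genotype, and the y axis gives the summed UMIs of the 13 homeostatic genes (left) and 8 DAM genes (right) per 100000 microglia-enriched UMIs, with black bars for mean and SD. The MyTE means lie between homeostatic microglia and both DAM states, while single libraries overlap: the lowest MyTE value of 15488 on the homeostatic list is below the highest of amyloid-DAM (16047), and the highest of 2185 on the DAM list exceeds the lowest of myelin-DAM (1805).

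Genotypes were next compared gene by gene within MyTE, on UMIs summed per library over the 6 libraries with at least 20 MyTE nuclei, with edgeR's quasi-likelihood test. Of 4264 genes tested, 11 (0.258%) passed an adjusted p of 0.05 between Cnp-/- 5xFAD and 5xFAD, 6 higher and 5 lower in Cnp-/- 5xFAD. Between Cnp-/- 5xFAD and Cnp-/- there were 2 (0.0469%), 1 higher and 1 lower. Between Cnp-/- and 5xFAD there were 5 (0.117%), 3 higher and 2 lower in Cnp-/-. At an unadjusted p under 0.05 the numbers were 255, 269 and 344. The comparisons share libraries. They called 15 different genes, of which Csmd2 alone was on a list of the 138 listed genes. The count in the first comparison was 6 without 5xFAD replicate 1, 20 without Cnp-/- replicate 2, 25 without 5xFAD replicate 2 and 27 without Cnp-/- 5xFAD replicate 1.

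Genes higher in Cnp-/- 5xFAD than in 5xFAD were mostly genes that MOL also held, and the levels in MOL of the same libraries are given beside those in MyTE. None of them passed the threshold in MOL, where the knocked-out Cnp did not pass either. Kirrel3, a cell adhesion gene (mm10 chromosome 9, 34485894 to 35036716, plus strand), stood at 1025 and 1136 CPM in 5xFAD MyTE and at 2235 and 2452 CPM in Cnp-/- 5xFAD MyTE, with 1779 and 1878 CPM in Cnp-/- and 1539 and 969 CPM in WT. The log2 fold change was 1.12 ± 0.165 (SE, adjusted p = 0.0036), and in MOL it was 1.47 ± 0.144 (adjusted p = 0.0529). Csmd2 (chromosome 4, 127987857 to 128567656, plus strand), given above, had a log2 fold change of 3.00 ± 0.555 (adjusted p = 0.0242). Over 13 alternatives this change ran from 2.31 to 7.64, and 4 of them lost the call (highest adjusted p = 0.14, edgeR or DESeq2). MOL held 119 and 87.3 CPM of Csmd2 in 5xFAD and 488 and 436 CPM in Cnp-/- 5xFAD, and other microglia held none in any library.

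Ephb2, a receptor of axon guidance, rose from 43.2 and 60.3 CPM in 5xFAD to 233 and 237 CPM in Cnp-/- 5xFAD (log2 fold change 2.21 ± 0.389, adjusted p = 0.0175). Fam13c rose from 111 and 171 CPM to 445 and 384 CPM (1.61 ± 0.310, adjusted p = 0.0252). In MOL, Ephb2 stood at 82.7 and 71.7 CPM against 345 and 344 CPM, and Fam13c at 327 and 294 CPM against 914 and 843 CPM. Cnp-/- MyTE held 124 and 112 CPM of Ephb2 and 372 and 521 CPM of Fam13c. WT MyTE held 88.8 and 0 CPM of Ephb2 (3 and 0 UMIs) and 59.2 and 323 CPM of Fam13c (2 and 3 UMIs). For both genes 5xFAD and Cnp-/- 5xFAD did not overlap in MyTE, as for 35.4% of all genes tested there. They did not overlap in MOL either, where the share over all genes was not counted. Other microglia held at most 16.2 CPM of Ephb2.

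The genes lower in Cnp-/- 5xFAD than in 5xFAD were led by Robo1, an axon guidance receptor (chromosome 16, 72308306 to 73046095, plus strand). It stood at 253 and 171 CPM in 5xFAD and 21.2 and 6.98 CPM in Cnp-/- 5xFAD MyTE (log2 fold change -3.78 ± 0.555, adjusted p = 0.0036). Cnp-/- MyTE held 45.04 and 18.6 CPM (8 and 1 UMIs) and WT 118 and 538 CPM (4 and 5 UMIs). MOL held 700 and 353 CPM in 5xFAD against 84.3 and 9.23 CPM in Cnp-/- 5xFAD. Dlg2, a synaptic scaffold gene, fell from 247 and 312 CPM to 53.0 and 69.8 CPM (-2.17 ± 0.352, adjusted p = 0.00947). Cnp-/- MyTE held 214 and 223 CPM of Dlg2, and WT MyTE 0 and 0 CPM (0 and 0 UMIs in 11 and 3 nuclei). So few WT nuclei give no firm WT level. MOL held 732 and 786 CPM of Dlg2 in WT and 515 and 404 CPM in Cnp-/-. Ctnna2, an alpha-catenin, fell from 932 and 703 CPM to 286 and 342 CPM (-1.41 ± 0.248, adjusted p = 0.0175), and Sez6l2 from 315 and 231 CPM to 74.1 and 83.8 CPM (-1.82 ± 0.346, adjusted p = 0.0242). In MOL, Dlg2 overlapped between 5xFAD and Cnp-/- 5xFAD, at 719 and 504 CPM against 567 and 254 CPM. Ctnna2 and Sez6l2 did not overlap there, and the share of all MOL genes without overlap was not counted. Sez6l2 lost its call in 5 of 13 alternatives (highest adjusted p = 0.698, edgeR or DESeq2).

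Ptprd, a receptor phosphatase, fell from 1741 and 2362 CPM to 1054 and 678 CPM (log2 fold change -1.22 ± 0.232, adjusted p = 0.0242). Cnp-/- MyTE held 2342 and 1525 CPM of Ptprd, and WT 651 and 1292 CPM, so the low values without Cnp were those of Cnp-/- 5xFAD. MOL held 4639.6 and 4959 CPM in 5xFAD and 4600.2 and 4094 CPM in Cnp-/- 5xFAD, at a log2 fold change of -0.08 ± 0.111 (adjusted p = 1.00). Opcml and Tnr, a cell adhesion gene and the gene of the matrix protein tenascin-R, were at 0 in both 5xFAD libraries of MyTE. Opcml stood at 244 and 203 CPM and Tnr at 143 and 112 CPM in Cnp-/- 5xFAD. In MOL, Opcml was lower in Cnp-/- 5xFAD (19.0 and 33.9 CPM) than in 5xFAD (72.1 and 63.8 CPM), and Tnr was at most 7.40 CPM. One nucleus of Cnp-/- 5xFAD replicate 1, with 7500 UMIs, held 45 of the 81 Opcml UMIs and 26 of the 44 Tnr UMIs of all MyTE, beside 17 UMIs of the precursor gene Lhfpl3. Without the highest nucleus of each library, Opcml stood at 5.51 and 36.3 CPM in Cnp-/- 5xFAD. Of the 11 genes, Ptprd kept its call in all alternatives run. Besides Csmd2 and Sez6l2, Tnr lost it in 4 of 11, Fam13c in 3 of 13, and Robo1, Ctnna2, Ephb2, Kirrel3, Dlg2 and Opcml in 1 or 2. All 11 genes had genotypes that did not overlap, as did 35.4% of the genes tested.

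Cnp-/- and 5xFAD MyTE differed in 5 genes. Csmd2 was higher in Cnp-/- (log2 fold change 3.17 ± 0.571, adjusted p = 0.0324), as was Erbb4, a neuregulin receptor, at 1565 and 1432 CPM against 562 and 563 CPM (1.44 ± 0.265, adjusted p = 0.0343). MOL held 2506 and 2734 CPM of Erbb4 in Cnp-/- against 1758 and 1808 CPM in 5xFAD. Gramd1b, a sterol transfer gene, was lower in Cnp-/-, at 0 and 18.6 CPM against 228 and 191 CPM (adjusted p = 0.00555), and MOL held 5.48 and 3.66 CPM against 147 and 215 CPM. Nrxn3 (chromosome 12, 88722876 to 90334935, plus strand) was at 619 and 130 CPM against 0 and 10.0 CPM (adjusted p = 0.00494). Without the highest nucleus of each library, Nrxn3 stood at 107 and 19.7 CPM in Cnp-/-. The genotypes did not overlap in these 5 genes, nor in 38.8% of the genes tested. Nrxn3 was tested in 11 of the 13 alternatives and kept its call in these. It was not among the genes tested without Cnp-/- replicate 1, the library that held 110 of its 121 UMIs. The call was lost in 5 of 13 for Csmd2, with log2 fold changes of 2.48 to 7.80, in 3 of 13 for Erbb4, in 2 of 13 for Gramd1b and in 1 of 13 for Cacna1a. The count of 5 was 1 without Cnp-/- replicate 1, 3 without Cnp-/- replicate 2, 22 without 5xFAD replicate 2, 26 without Cnp-/- 5xFAD replicate 1 and 30 without Cnp-/- 5xFAD replicate 2.

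Cacna1a, a calcium channel gene that MOL held at 1.83 to 31.7 CPM, differed between Cnp-/- and both 5xFAD genotypes in MyTE. In MyTE it stood at 0 and 0 CPM in WT, 67.6 and 55.8 CPM in Cnp-/-, 383 and 422 CPM in 5xFAD, and 466 and 251 CPM in Cnp-/- 5xFAD. It was lower in Cnp-/- than in 5xFAD (log2 fold change -2.60 ± 0.412, adjusted p = 0.00932) and higher in Cnp-/- 5xFAD than in Cnp-/- (2.47 ± 0.407, adjusted p = 0.0231). Other microglia held 0 and 12.7 CPM in WT, 438 and 371 CPM in Cnp-/- and 1042 to 1229 CPM in the 4 libraries with 5xFAD. The other gene that differed between Cnp-/- 5xFAD and Cnp-/- was Nrxn3, which fell to 15.9 and 0 CPM (log2 fold change -5.50 ± 0.742, adjusted p = 0.00346). Neither gene overlapped between these genotypes, nor did 36.5% of the genes tested. The count of 2 was 0 without Cnp-/- replicate 1 (404 genes at an unadjusted p under 0.05), where Cacna1a had an adjusted p of 0.396, 1 of 3 among 13 alternatives that lost its call. It was 9 without Cnp-/- 5xFAD replicate 1, 11 without Cnp-/- replicate 2, 13 and 14 without 5xFAD replicates 1 and 2, and 18 without Cnp-/- 5xFAD replicate 2.

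**Figure D5:**
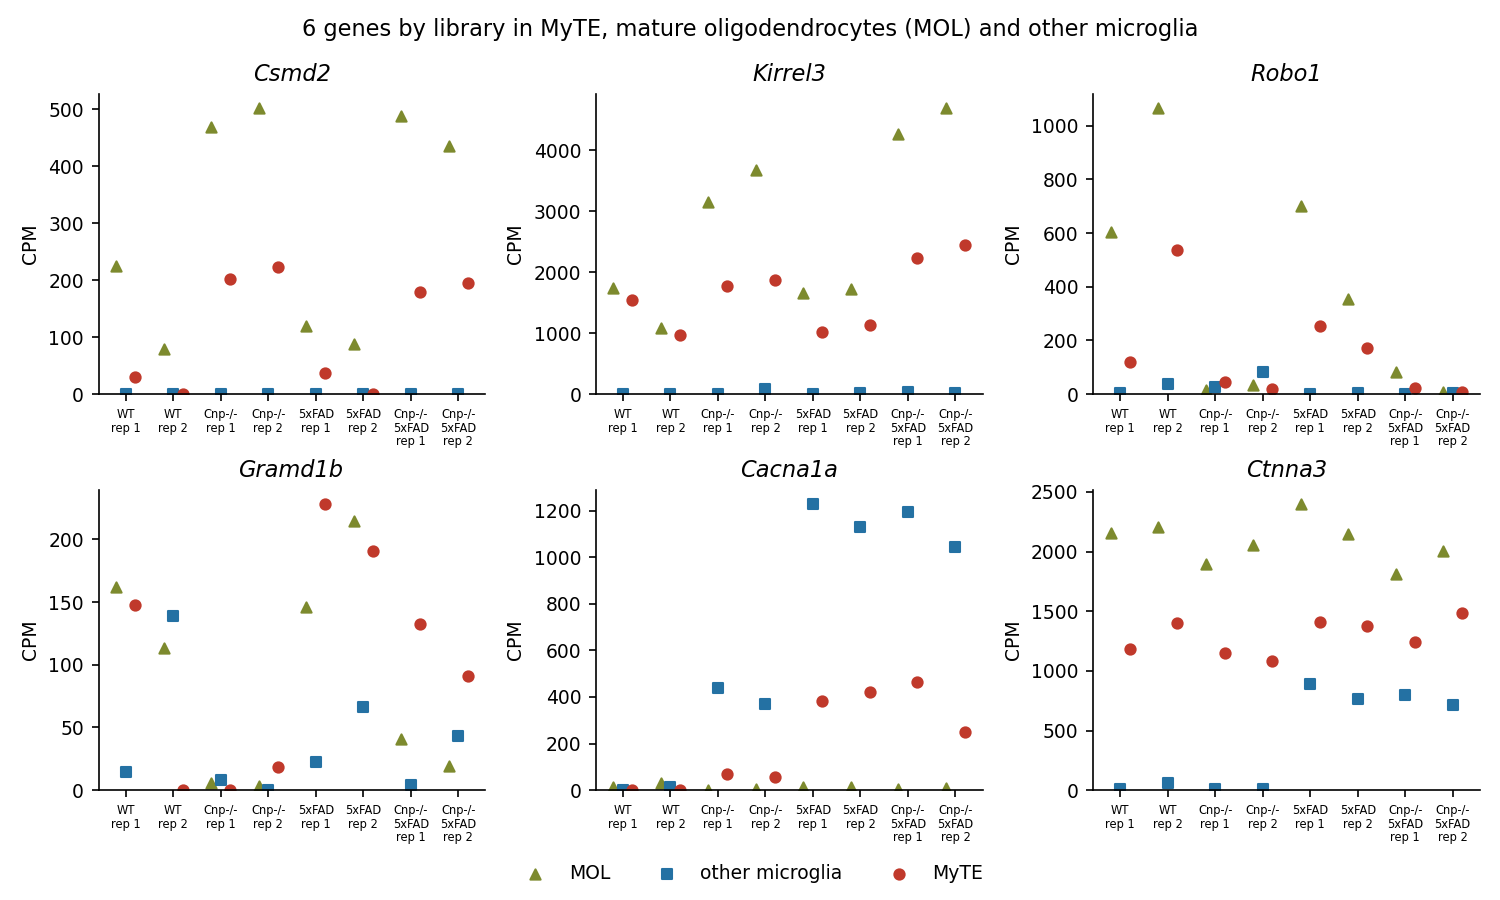
CPM by library (x axis) of 6 genes in MyTE (red circles), MOL (green triangles) and other microglia (blue squares), on linear axes that start at 0. Csmd2, Kirrel3, Robo1 and Gramd1b in MyTE lie beside levels in MOL that differ by genotype, Cacna1a lies beside other microglia, and Ctnna3 stays high in MyTE of every library while other microglia hold 710 to 893 CPM with 5xFAD and at most 63.3 CPM without it.

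The listed gene groups were read in the same fits. With 0.258, 0.0469 and 0.117% of all genes called, lists of this length would hold few calls, and a count of 0 says little about them. Of 10 myelin protein genes tested, Cnp among them, 0 passed in any of the 3 comparisons, with median log2 fold changes of -0.08 for Cnp-/- 5xFAD against 5xFAD, -0.22 for Cnp-/- 5xFAD against Cnp-/- and 0.20 for Cnp-/- against 5xFAD, where all genes tested had -0.0081, 0.0070 and -0.012. The 12 homeostatic genes tested had medians of -0.06, 0.09 and -0.07, and 0 passed. The 11 DAM genes tested, of 22 listed, had medians of 0.16, 0.59 and -0.17, and 0 passed. At an unadjusted p under 0.05 there were 2, 5 and 3 of these 11, where 5.98, 6.31 and 8.07% of all genes tested were. Such counts were not particular to this list, since the 10 other oligodendrocyte genes had 5, 4 and 2. The 10 myelin protein genes had 1, 1 and 2, and the 12 homeostatic genes 0, 1 and 1. The 14 genes tested of the phagocytosis, lysosome and lipid handling list had medians of 0.09, 0.16 and -0.05, and 0 passed. The median SE of a gene was 0.422, 0.444 and 0.460 in the 3 comparisons.

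Other populations of the same 6 libraries were fitted in the same way. In MOL 0 of 8239 genes passed in each of the 3 comparisons, with 543, 278 and 634 genes at an unadjusted p under 0.05. In other microglia 0, 1 and 3 of 6720 genes passed. That MyTE gave more calls than MOL does not show a larger response, since the difference between MyTE and MOL was not tested. The difference between MyTE and other microglia was tested for the Cnp-/- against 5xFAD contrast.

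This interaction asked whether the difference between Cnp-/- and 5xFAD was the same in MyTE and in other microglia. Of 5967 genes tested with the library as a block, 3 (0.0503%) differed, with 334 at an unadjusted p under 0.05. Ctnna3, an alpha-catenin (chromosome 10, 63430098 to 65003667, plus strand), stood at 1148 and 1078 CPM in Cnp-/- and 1408 and 1377 CPM in 5xFAD MyTE. Other microglia held 8.12 and 7.42 CPM in Cnp-/- and 893 and 766 CPM in 5xFAD, and MOL held 1811 to 2400 CPM in all 8 libraries. The difference of the log2 effects was 6.36 ± 0.454 (SE, adjusted p = 6.29e-06). The weighted sum of other microglia and MOL was 1033 and 1118 CPM in Cnp-/- and 1676 and 1484 CPM in 5xFAD. The test therefore does not separate the microglial part of MyTE from the oligodendrocyte RNA in the same nuclei.

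Tmem163, a zinc transporter gene, stood at 191 and 112 CPM in Cnp-/- and 179 and 191 CPM in 5xFAD MyTE, while other microglia were at 0 in both Cnp-/- libraries and at 220 and 183 CPM in 5xFAD (adjusted p = 0.00923). Mat2a, which encodes the enzyme that makes S-adenosylmethionine, stood at 411 and 465 CPM in Cnp-/- and 266 and 121 CPM in 5xFAD MyTE, against 20.3 and 29.7 CPM and 156 and 61.1 CPM in other microglia (adjusted p = 0.0484). MOL held 81.4 to 157 CPM of Tmem163 and 287 to 531 CPM of Mat2a. The weighted sum for Tmem163 was 66.9 and 85.5 CPM in Cnp-/- and 161 and 133 CPM in 5xFAD. For Mat2a the sum was 297 and 293 CPM in Cnp-/- and 283 and 181 CPM in 5xFAD. In all 3 genes the 5xFAD effect in other microglia was a rise from a low level, and MyTE and MOL held the gene in every library. The count of 3 was 1 without 5xFAD replicate 1, 21 without Cnp-/- replicate 1, 14 without Cnp-/- 5xFAD replicate 1 and 21 without Cnp-/- 5xFAD replicate 2, and 1 (Ctnna3) against homeostatic microglia alone. Ctnna3 kept its call in all 10 alternatives (highest adjusted p = 0.0189, edgeR). Tmem163 lost it in 3 of 10 (highest adjusted p = 0.933), and Mat2a in 7 of 10 (highest adjusted p = 0.684).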

How the data were processed

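The values were UMI counts per gene and nucleus, deposited by the authors without normalization in a table of all nuclei and a table of microglia and macrophages. Per the labels, Cell Ranger 6.1.2 and mm10 were used. The authors removed ambient transcripts with CellBender, filtered nuclei on genes and UMIs, dropped clusters of undefined identity and clustered with Seurat. Intron counting and doublet treatment of these data are not given in the sources used here. The authors also deposited the percent of mitochondrial UMIs per nucleus, which was not used here. Deposited nuclei were all kept. Scrublet in scanpy 1.11.5 marked 95 of 61949 nuclei and 0 of 270 MyTE nuclei, too few to count as working, and its calls were not used.

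The MyTE label came from clustering on all genes, so MyTE against other populations is a description without a test. The members and the 16 gene lists were chosen with earlier results of these data known. The library was the replicate. Per the study's reporting summary, each replicate of its single-cell work pooled 2 animals. Its methods give this pooling for another dataset and no number of animals for these libraries, so p-values measure the spread between libraries. MyTE held 9289 to 188836 UMIs per library. Profiles of the 6 libraries with at least 20 MyTE nuclei were fitted with edgeR 4.0.16 (quasi-likelihood test, TMM, filterByExpr, Benjamini-Hochberg threshold 0.05) in R 4.3.3. Shares were compared by exact permutation over libraries (Python 3.11.15). The fits were tested on simulated data. Same-numbered libraries did not deviate together (r = 0.0337, 0.0590 and 0.0397).

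Genes named were list members, up to 10 highest and 10 lowest called genes per contrast whose genotypes did not overlap, genes above every other population, and the 5 highest and 5 lowest ratios of MyTE to MOL. Genes outside 2-fold of the weighted sum, and those of the interaction, were named after their values were seen. Thinning drew 700 UMIs per nucleus, and 0.5 UMI was added per gene to state profiles. Alternatives were DESeq2 1.42.0, its size factors, no filter, the replicate block, all 8 libraries, 20 nuclei per library, other enrichment limits and state references, and each library left out. The DAM gene Clec7a was not analysed here, and some genes are not reported here. Positions are those of GENCODE for GRCm38.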

Additional observations from a re-analysis of the deposited data

Results flagged for a closer look

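The share of MyTE UMIs on oligodendrocyte-enriched genes was 4.32% in WT replicate 2, far above the other libraries with intact Cnp, at a depth of 3 nuclei. It was 1 of 12 groups of libraries checked for such a sample, and chance flags about 1 group in 20.

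The difference between Cnp-/- and 5xFAD was not the same in MyTE and in other microglia for 3 genes, by the interaction test. MOL held each of these genes in every library. The test therefore does not separate the microglial part of MyTE from the oligodendrocyte RNA in the same nuclei. The difference of log2 effects was 6.36 for Ctnna3, 8.43 for Tmem163 and 3.35 for Mat2a. The value for Tmem163 depends on the prior count, because other microglia of both Cnp-/- libraries were at 0. Of 10 alternatives, Ctnna3 kept its call in 10, Tmem163 lost it in 3 and Mat2a in 7.

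Among 181 nuclei labelled microglia that are outside the microglia table and in no comparison, 44 (24.3%, Wilson 95% interval 18.6 to 31.1%, counting error only) held at least 30 UMIs on both the microglia-enriched and the oligodendrocyte-enriched genes. By library the share was 5.56 to 33.3%, and 131 of the 181 lay in the cluster that held 252 MyTE nuclei.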

How the results depend on the processing

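For Cnp-/- 5xFAD against 5xFAD, 11 genes became 3 with DESeq2's Wald test, 32 without a filter and 20 with all 8 libraries, and 6 to 27 with a library left out. For Cnp-/- 5xFAD against Cnp-/-, 2 genes became 21 without a filter, 6 with all 8 libraries, 5 with 20 nuclei per library, 1 with the replicate block and 0 to 18 with a library left out. For Cnp-/- against 5xFAD, 5 genes became 36 without a filter, 11 with 20 nuclei per library and 1 to 30 with a library left out. For the interaction, 3 genes became 19 without a filter, 1 against homeostatic microglia alone and 1 to 21 with a library left out. A genotype left with 1 library was assumed to vary like the others, and the cause of these shifts was not tested.

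The replicate block gave 10 genes for Cnp-/- 5xFAD against 5xFAD, and the numbers do not pair the libraries. For the amyloid-DAM share the difference was 34.0 (exact permutation p = 0.0667) over libraries with at least 20 MyTE nuclei. With the replicate block it was 37.0 (exact permutation p = 0.0556). Each p was the smallest that its setting allows. For the myelin-DAM share the exact permutation p fell to 0.0286 with the 5-fold limit (15.9), with nuclei of at least 50 UMIs on microglia-enriched genes (19.8) and without macrophage-labelled nuclei (20.1, chosen after seeing the data). Without 1 library the myelin-DAM difference ran from 14.4 to 24.1, the amyloid-DAM difference from 34.7 to 39.6. The oligodendrocyte-enriched share difference ran from -0.306 to -0.0170 over its alternatives. Cnp between Cnp-/- 5xFAD and Cnp-/- turned from -0.22 to 4.30 without Cnp-/- replicate 1 and was -0.65 without Cnp-/- replicate 2, at no more than 5 UMIs in a library. Of 255 alternative values of 21 calls, counting a gene once per comparison, 206 kept the call, 49 lost it and 0 changed direction. Alternatives in which a gene was not tested are not among the 255, such as Nrxn3 without Cnp-/- replicate 1. DESeq2's Wald test lost 10 of 18 calls. Depth limits low genes, at 53782 to 188836 MyTE UMIs in the libraries tested.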
